A study of Mus musculus with 12 samples.

Results

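Oocyte growth needs a set of transcription factors, and the mRNA of 9 of them was followed here in WT and Zar1/2-null mouse oocytes. ZAR1 and ZAR2 are RNA-binding proteins of the oocyte cytoplasm. The 9 genes were listed by name: Nobox, Figla, Sohlh1, Sohlh2, Lhx8, Taf4b, Sebox, Gcnf1 and Tbpl2, of 23230 genes in the table. No cut on their values was used, but earlier results of these data were known when they were chosen. Gcnf1, the germ cell nuclear factor, is listed under the symbol Nr6a1, which carries Gcnf as a synonym in RefSeq. A gene was tested if it had at least 1 FPKM in at least 1 library, a condition that 11502 genes met, among them 8 of the 9 members. Sohlh1 did not meet it.

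Growing oocytes were labelled as coming from mice of 13.5 days. Fully grown oocytes with a germinal vesicle (GV) came from mice of 21 days, 44 h after PMSG, and ovulated (MII) oocytes were collected 16 h after hCG. The study describes superovulation as PMSG followed 44 h later by hCG, in females at least 21 days old. Each stage was sampled from WT females and from knockout females lacking both Zar1 and Zar2 (Zar1/2-null, made with CRISPR/Cas9), in a C57BL6/ICR hybrid strain. Each of the 6 groups had 2 libraries, each made from 10 oocytes. The name MII gives the time of collection only: the study describes arrest in the first meiotic division in Zar1/2-null oocytes, and the meiotic stage of the sequenced cells was not given. Whether the 2 libraries of a group came from separate females was not given, so p-values measure the spread between these libraries, which may be technical.

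These factors act in layers. SOHLH1 and SOHLH2 are basic helix-loop-helix (bHLH) proteins needed at the start of follicle growth, upstream of the LIM-homeodomain protein LHX8, the homeodomain protein NOBOX and the bHLH protein FIGLA. FIGLA pairs with the ubiquitous E12 protein (from Tcf3) on E-boxes of the zona pellucida genes, whereas NOBOX activates growth factor genes such as Gdf9. TBPL2 takes the place of the TATA-binding protein (TBP) in growing oocytes, and TAF4b is a gonad-enriched subunit of the TFIID complex. Transcription stops in fully grown oocytes once chromatin surrounds the nucleolus, and mRNA levels then depend on stability. The study still detected transcription in GV oocytes without that configuration. Which configuration the sequenced GV oocytes had was not given. Part of the maternal mRNA is degraded during maturation to MII.

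Levels are given as FPKM, a fragment measure that corrects for transcript length and library size, scaled by the authors with ERCC spike-in RNA so that they follow the amount per library. Fewer cells and less RNA per cell cannot be told apart on this scale. The study describes poly(A) tails of some maternal mRNAs that lengthened during maturation in WT but not in knockout oocytes. Tail lengths of the members were not measured, so the part of tail length in the levels read here was not tested. The study lists the total reads of each library, but the FPKM table holds no read counts, so the counting error behind a value is not known. Differences were tested with limma on log2(FPKM + 1), a scale that understates the change of low genes, and p-values were adjusted over all 11502 genes by Benjamini-Hochberg. A gene passed at an adjusted p under 0.05. An exact permutation test of 2 against 2 libraries cannot go below p = 0.333.

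The targeted genes were checked first. Zar1l, which encodes ZAR2, had 639 and 644 FPKM in WT growing oocytes against 17.5 and 13.2 FPKM in Zar1/2-null growing oocytes, and it was lower in Zar1/2-null oocytes at all 3 stages. Zar1 mRNA was still read in Zar1/2-null oocytes, at 407 and 460 FPKM in growing oocytes against 603 and 725 FPKM in WT, and at MII it was higher in Zar1/2-null oocytes (log2 difference 1.29, limma adjusted p = 0.000381). The study describes the Zar1 allele as a short deletion with a stop codon soon after the translation start. It found ZAR1 protein missing from these oocytes by western blot. Reads outside that deletion check nothing, and where the reads fell is not in a gene-level table. All 6 oocyte markers were at 1 FPKM or more in all 12 libraries. The 12 granulosa and cumulus cell markers summed to between 5.14 and 32.1 FPKM, with Amh at 0 in 11 of 12 libraries and Foxl2 at most 0.0954 FPKM. In growing oocytes that sum was 32.1 and 28.6 FPKM in WT against 21.9 and 14.03 FPKM in Zar1/2-null libraries, and of the 5 markers tested 3 were lower in the latter, Cyp19a1 and Kitl among them, and 1 was higher, Nr5a2 (9.83 against 5.91 FPKM, limma adjusted p = 0.00885). At MII the sum was 5.14 and 5.52 FPKM in WT against 8.49 and 7.26 FPKM in Zar1/2-null libraries, with 0 of the 5 markers passing. The part of these cells in the results was not tested. The 6 immune markers summed to at most 0.383 FPKM.

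The promoters of 3 members are shown because E-boxes (CANNTG, the site that bHLH proteins such as FIGLA and SOHLH2 bind) occur in them, 1 in the most abundant member (Nobox), 1 in the member that differed most between genotypes at MII (Figla) and 1 in a member that was lower in Zar1/2-null oocytes (Tbpl2). Each line holds the 250 bases before the RefSeq start on build GRCm38.p6, with E-boxes in capitals: Nobox at chr6:43309555-43309804 (minus strand), Figla at chr6:86016941-86017190 (plus strand) and Tbpl2 at chr2:24096596-24096845 (minus strand).
Nobox: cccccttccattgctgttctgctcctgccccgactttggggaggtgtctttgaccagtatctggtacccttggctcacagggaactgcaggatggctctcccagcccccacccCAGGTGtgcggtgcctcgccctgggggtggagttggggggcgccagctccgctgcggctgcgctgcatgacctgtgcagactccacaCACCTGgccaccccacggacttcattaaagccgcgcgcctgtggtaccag
Figla: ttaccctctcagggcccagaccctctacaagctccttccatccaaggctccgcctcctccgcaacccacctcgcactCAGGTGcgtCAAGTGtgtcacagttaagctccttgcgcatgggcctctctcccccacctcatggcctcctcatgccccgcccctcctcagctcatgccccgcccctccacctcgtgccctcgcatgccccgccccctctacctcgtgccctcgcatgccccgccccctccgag
Tbpl2: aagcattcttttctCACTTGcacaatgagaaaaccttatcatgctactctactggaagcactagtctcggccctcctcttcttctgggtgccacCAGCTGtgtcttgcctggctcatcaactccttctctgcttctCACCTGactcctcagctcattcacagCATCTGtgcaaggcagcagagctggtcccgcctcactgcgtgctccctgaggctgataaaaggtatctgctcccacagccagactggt
The E-box reads the same in letters on both strands, and it occurs in 66.2% of 32851 RefSeq promoters of this length, so a match is common. A RefSeq promoter was matched for 8 of the 9 members, and 6 of those 8 held an E-box. Of the other motifs searched on both strands, TAATTG (bound by NOBOX) occurs in 7.17% of all these promoters, TGATTG (bound by LHX8) in 12.7% and TATAAA in 12.4%, and none of the 8 members held any of these in this window.

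Because maturing oocytes no longer transcribe, the 3′ ends of these mRNAs are shown too. Poly(A) signals and cytoplasmic polyadenylation elements (CPE) lie there. Each line gives 30 bases around the last poly(A) hexamer (AATAAA or ATTAAA, in capitals) of the longest annotated coding transcript with at least 100 bases after its stop codon, on build NCBIM37 (mm9).
Nobox: cagtgcatgcaataAATAAAacagtaacta
Figla: tcatgtaaaatataATTAAAatgagatgat
Sohlh2: ccattgttttgtttAATAAAatgttttctc
Lhx8: accatcctaagttcATTAAAcactttgcat
Sebox: ccaactaatctccaAATAAAacaaaactct
Nr6a1: actgtatttgaaccAATAAAtgtgaatcct
A hexamer was found in the last 50 bases of 7 of the 9 members, and of 76.5% of 18374 genes with a coding transcript. The transcripts of Taf4b and Tbpl2 as annotated held neither form there. A CPE (TTTTAT or TTTTAAT) was found in the last 100 bases of 1 member, Sohlh2, which held 2 copies, and of 17.6% of all genes. Only the sense strand was searched.

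In WT oocytes the 8 tested members covered a wide range of levels. In growing oocytes the order of the means was Nobox, Lhx8, Figla, Sebox, Tbpl2, Nr6a1, Taf4b and Sohlh2, and the libraries of neighbours did not overlap except for Tbpl2 and Nr6a1. At MII Nobox was still the highest, and Figla had become the lowest. No member passed between genotypes in growing oocytes. Figla, Sebox, Sohlh2 and Nobox were higher in Zar1/2-null oocytes at MII, and Nr6a1 and Tbpl2 were lower in them at the GV stage and at MII.

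**Figure D1:**
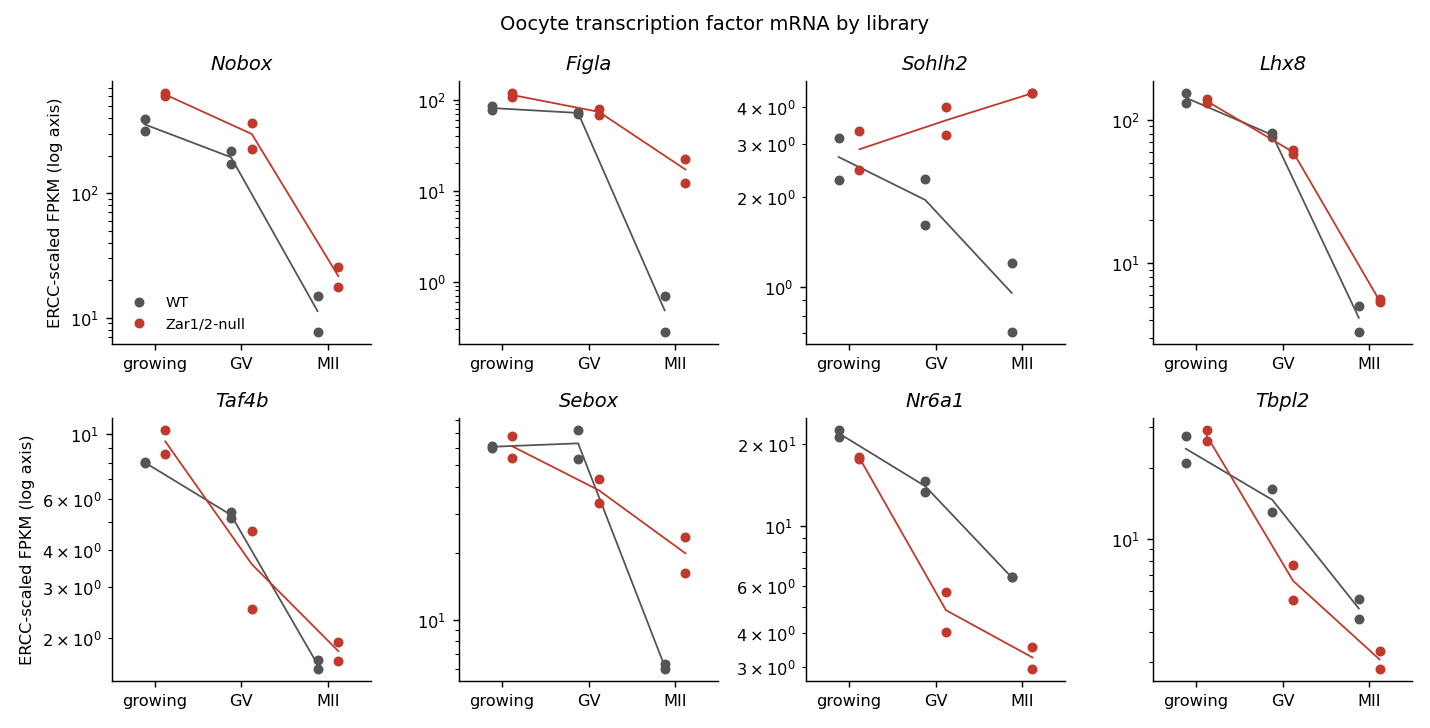
ERCC-scaled FPKM (log axis) of the 8 tested members in growing, GV and MII oocytes, WT in grey and Zar1/2-null in red, with 1 point for each library and a line through the group means (2 libraries a group). Figla had 22.1 and 12.1 FPKM in Zar1/2-null MII oocytes against 0.276 and 0.687 FPKM in WT, while both Zar1/2-null libraries lay below WT for Nr6a1 at every stage.

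Nobox (mm9 chr6:43253673-43259561, minus strand) had 317 and 397 FPKM in WT growing oocytes against 637 and 601 FPKM in Zar1/2-null ones. Its GV levels were 218 and 170 FPKM in WT against 228 and 369 FPKM, and at MII 7.63 and 14.9 FPKM in WT against 25.5 and 17.6 FPKM. Both Zar1/2-null libraries were above both WT libraries at each stage. The log2 difference was 0.80 (SE 0.31) in growing oocytes, with a 95% interval of 0.12 to 1.48, but the limma adjusted p was 0.0655. It was 0.59 at the GV stage (limma adjusted p = 0.143) and 0.92 at MII (SE 0.31, limma adjusted p = 0.0415). The MII call was lost in 10 of 21 alternatives, among them the fits without WT MII replicate 1 (0.48, adjusted p = 0.344) and without Zar1/2-null MII replicate 1 (0.67, adjusted p = 0.251), and those without any growing library or either WT GV library, where the value kept at 0.92 had an adjusted p of up to 0.0590. With the ERCC factors divided out, Nobox passed in growing oocytes (1.09, adjusted p = 0.0132) and at the GV stage (1.04, adjusted p = 0.0204).

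Figla (mm9 chr6:85967185-85970990, plus strand) gave the largest genotype difference among the 8 tested members. In growing oocytes it had 85.5 and 77.7 FPKM in WT against 119 and 108 FPKM in Zar1/2-null libraries, which were both higher, with a log2 difference of 0.47 (SE 0.24) that did not pass (limma adjusted p = 0.152). At the GV stage the genotypes overlapped, at 74.2 and 69.8 FPKM in WT against 80.5 and 67.6 FPKM. At MII Figla was read at 0.276 and 0.687 FPKM in WT oocytes and at 22.1 and 12.1 FPKM in Zar1/2-null oocytes. The log2 difference was 3.57 (SE 0.24, limma adjusted p = 4.77e-07), or 17.1-fold with the WT mean set to 1 FPKM. The value lay between 3.16 and 4.92 in 21 alternatives, all of which kept the call.

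Sebox (mm9 chr11:78316951-78318583, plus strand), a homeobox gene whose product is needed by the early embryo, changed sign between stages. It had 61.4 and 59.8 FPKM in WT growing oocytes against 67.9 and 53.9 FPKM, which overlapped (log2 difference -0.00, interval -0.48 to 0.47). At the GV stage Zar1/2-null oocytes were lower, at 33.7 and 43.3 FPKM against 72.5 and 53.2 FPKM in WT (log2 difference -0.69, SE 0.21, limma adjusted p = 0.0242). That call was lost when the ERCC factors were divided out (-0.24, adjusted p = 0.305), with median scaling (-0.14, adjusted p = 0.630), in a fit of the 4 GV libraries alone, and without WT GV replicate 1 (-0.47, adjusted p = 0.193) or Zar1/2-null GV replicate 1 (-0.51, adjusted p = 0.147). At MII they were higher, at 23.6 and 16.3 FPKM against 6.31 and 5.97 FPKM (log2 difference 1.53, SE 0.21, limma adjusted p = 0.000209). The MII call was kept in 21 of 21 alternatives.

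Sohlh2 (mm9 chr3:54985950-55013879, plus strand) was low, at 2.28 and 3.16 FPKM in WT growing oocytes against 3.32 and 2.46 FPKM in Zar1/2-null ones, which overlapped. In GV oocytes it had 1.62 and 2.29 FPKM in WT against 3.22 and 4.002 FPKM in Zar1/2-null oocytes (log2 difference 0.65, SE 0.19, limma adjusted p = 0.0184). Without WT GV replicate 1 the value was 0.48 (adjusted p = 0.150), without Zar1/2-null GV replicate 2 it was 0.52 (adjusted p = 0.0979), and in a fit of the 4 GV libraries alone the adjusted p was 0.0538. At MII it had 0.704 and 1.20 FPKM in WT against 4.45 and 4.46 FPKM in Zar1/2-null oocytes (log2 difference 1.49, SE 0.19, limma adjusted p = 9.94e-05), and 20 of 20 alternatives kept this call. Its relative Sohlh1 (mm9 chr2:25698515-25702768, minus strand) had at most 0.310 FPKM in any library, with 0 given for each of the Zar1/2-null MII libraries, so it gives no comparison.

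Nr6a1, which encodes the orphan nuclear receptor GCNF, a repressor of Gdf9 and Bmp15 (mm9 chr2:38578890-38783208, minus strand), was lower in Zar1/2-null oocytes at the GV stage and at MII. It had 21.3 and 22.7 FPKM in WT growing oocytes against 17.6 and 18.02 FPKM in Zar1/2-null ones, both lower, with a log2 difference of -0.29 (limma adjusted p = 0.176). GV levels in WT were 14.6 and 13.4 FPKM and those in Zar1/2-null oocytes 5.69 and 4.05 FPKM (log2 difference -1.37, SE 0.16, limma adjusted p = 9.32e-05). At MII the values were 6.44 and 6.44 FPKM in WT and 2.95 and 3.56 FPKM in Zar1/2-null oocytes (log2 difference -0.81, SE 0.16, limma adjusted p = 0.00195). Both calls were kept in all alternatives run. Smart-seq2 libraries do not mark strand, and 5 annotated genes overlap Nr6a1, 2 of them microRNA genes on the opposite strand that the table also lists.

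Tbpl2 (mm9 chr2:23927241-23952115, minus strand) was, like Nr6a1, lower in Zar1/2-null oocytes at the GV stage and at MII. It had 27.3 and 21.0 FPKM in WT growing oocytes against 29.1 and 25.9 FPKM, which overlapped. At the GV stage WT had 16.3 and 13.0 FPKM and Zar1/2-null oocytes 5.48 and 7.75 FPKM (log2 difference -1.04, SE 0.20, limma adjusted p = 0.00169). With median scaling this was -0.56 and did not pass (adjusted p = 0.0691). At MII the values were 5.53 and 4.56 FPKM in WT and 3.33 and 2.79 FPKM in Zar1/2-null oocytes (log2 difference -0.57, SE 0.20, limma adjusted p = 0.0442), a call that was lost in 7 of 21 alternatives, among them the fits without WT MII replicate 1 (-0.45, adjusted p = 0.228) or 2 (-0.69, adjusted p = 0.0692), without Zar1/2-null MII replicate 1 (-0.67, adjusted p = 0.0823) or 2 (-0.48, adjusted p = 0.217), and without either Zar1/2-null growing library (adjusted p up to 0.0574).

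Lhx8 and Taf4b did not pass between genotypes at any stage. Lhx8 (mm9 chr3:153969260-153993615, minus strand) had 131 and 154 FPKM in WT growing oocytes against 131 and 140 FPKM, 81.1 and 75.7 FPKM at the GV stage against 58.2 and 61.1 FPKM, and 3.31 and 5.04 FPKM at MII against 5.61 and 5.35 FPKM. Both Zar1/2-null libraries were below WT at the GV stage (log2 difference -0.39, limma adjusted p = 0.0871) and above WT at MII (0.34, limma adjusted p = 0.159, interval -0.03 to 0.72). Without WT MII replicate 2 the MII difference was 0.59 and passed (adjusted p = 0.0325), as did the GV difference (adjusted p = 0.0499). The GV difference was positive when the ERCC factors were divided out (0.06).

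Taf4b (mm9 chr18:14941754-15058868, plus strand) had 8.05 and 7.98 FPKM in WT growing oocytes against 8.53 and 10.4 FPKM in Zar1/2-null ones. The GV levels were 5.17 and 5.40 FPKM in WT against 4.66 and 2.51 FPKM (log2 difference -0.50, limma adjusted p = 0.0613), and without Zar1/2-null GV replicate 1 this difference was -0.84 and passed (adjusted p = 0.00366). At MII the genotypes overlapped, at 1.57 and 1.68 FPKM in WT against 1.94 and 1.67 FPKM.

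Counted over stages, 0 of 8 members passed in growing oocytes, where 10.6% of all tested genes were higher and 24.4% lower in Zar1/2-null oocytes. At the GV stage 1 member was higher (2.83% of all genes) and 3 were lower (40.6% of all genes), so on this scale the lower count sits near the background. With the ERCC factors divided out, 2 members were higher and 2 lower, beside 882 and 1590 of 12155 genes, and with median scaling 2 were higher and 1 lower, beside 1116 and 1298 of 12038 genes. At MII 4 members were higher (21.5% of all genes) and 2 lower (10.3% of all genes). The median log2 difference of the members was 0.13, -0.44 and 0.63 at the 3 stages, against -0.16, -0.38 and 0.06 for all genes tested. A 3-fold rule was also used on group means, with those under 1 FPKM set to 1 FPKM. By this rule, 0 members passed in growing oocytes (4.52% of all genes did) and 0 at the GV stage (4.66%). At MII 3 members passed (8.82%), all of them higher in Zar1/2-null oocytes (7.49%): Figla, Sohlh2 and Sebox. With the ERCC factors divided out, and also with median scaling, 2 members passed, and leaving out 1 library gave 2 to 3. Sebox was 3.25-fold higher as deposited and 2.73-fold higher with the factors divided out.

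**Figure D2:**
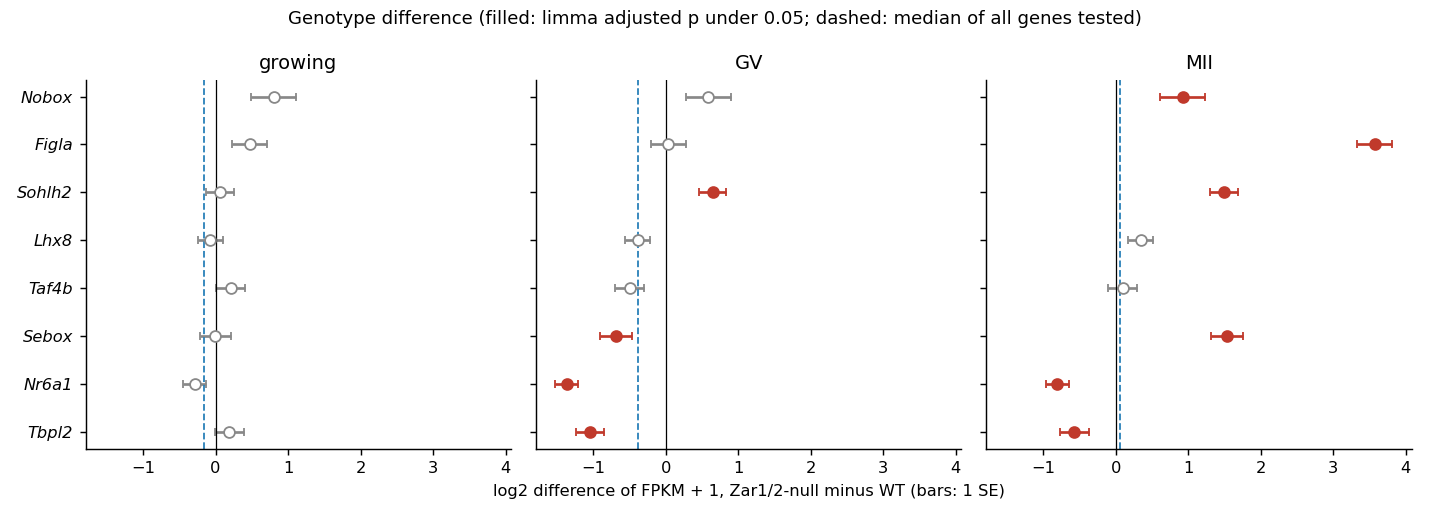
Log2 difference of FPKM + 1 between Zar1/2-null and WT oocytes for each tested member at the growing, GV and MII stages, with bars of 1 SE, filled points for an adjusted p under 0.05 and a dashed line at the median of all genes. No point is filled in growing oocytes, 4 are filled at the GV stage and 6 at MII, where Figla stands at 3.57.

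Whether the genotype difference itself changed from one stage to the next was tested as an interaction. From the growing to the GV stage the difference moved down for 2 members (11.3% of all genes) and up for none (2.58%): Nr6a1 by a log2 value of -1.08 (SE 0.22, limma adjusted p = 0.0115) and Tbpl2 by -1.24 (SE 0.28, limma adjusted p = 0.0174). From the GV stage to MII it moved up for 4 members (33.9% of all genes) and down for none (0.643%). Figla gained 3.54 (SE 0.34, limma adjusted p = 1.52e-05), Sebox 2.22 (SE 0.30, limma adjusted p = 0.000258), Sohlh2 0.85 (SE 0.27, limma adjusted p = 0.0322) and Lhx8 0.73 (SE 0.24, limma adjusted p = 0.0377). The median gene itself moved by -0.23 and 0.48 in these tests, and both share the GV libraries.

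In WT oocytes all 8 members were lower at MII than at the GV stage on the ERCC scale, as were 93.4% of all genes, with 0.104% higher. The fall was deepest for Figla (-5.64), Nobox (-4.04), Lhx8 (-3.96) and Sebox (-3.14 on the log2 scale), against a median of -1.28 for all genes. It was near that median for Tbpl2 (-1.37), Taf4b (-1.26) and Nr6a1 (-1.01), and smaller for Sohlh2 (-0.60), whose call was lost without WT GV replicate 2 (-0.43, adjusted p = 0.0953) or WT MII replicate 1 (-0.41, adjusted p = 0.105). The latter 4 turned positive when the ERCC factors were divided out, and the 4 that fell most did not. Nr6a1 then passed as higher at MII (0.61, adjusted p = 0.0173), as it did with median scaling (0.86, adjusted p = 0.00122), where Sohlh2 passed as higher too (0.72, adjusted p = 0.0132). On that scale Figla stood at -4.99, Lhx8 at -2.44, Nobox at -2.39 and Sebox at -1.55, against a median of -0.39.

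In Zar1/2-null oocytes 7 members were lower at MII than at the GV stage (68.7% of all genes, with 0.209% higher). Figla stood at -2.10 and Sebox at -0.93 on the log2 scale, and Sebox turned positive without the ERCC factors (0.10, adjusted p = 0.608). Nobox (-3.71) and Lhx8 (-3.23) fell furthest, against a median of -0.72. Sohlh2 was the exception, at 3.61 ± 0.552 FPKM (SD, n = 2) in GV and 4.45 ± 0.00649 FPKM (SD, n = 2) in MII oocytes, a log2 difference of 0.25 that did not pass (limma adjusted p = 0.264). It passed when the ERCC factors were divided out (1.25, adjusted p = 0.00106). With median scaling 3 members were lower and 2 higher, beside 4197 and 3163 of 12038 genes. The 2 higher were Sohlh2 (1.46, limma adjusted p = 0.000180) and Nr6a1 (0.66, limma adjusted p = 0.00753). The calls of Nr6a1 and Taf4b were lost without Zar1/2-null GV replicate 1 (-0.25 and -0.32, adjusted p = 0.169 and 0.0919).

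**Figure D3:**
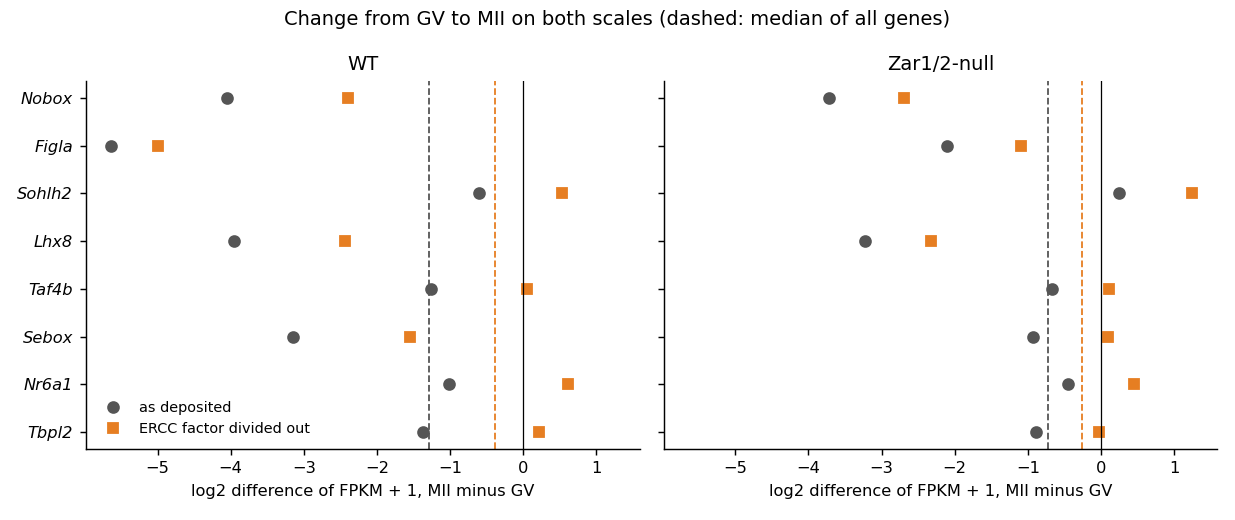
Log2 difference of FPKM + 1 between MII and GV oocytes for each member in WT (left) and Zar1/2-null oocytes (right), as deposited (grey circles) and with the ERCC factor divided out (orange squares), with dashed lines at the median of all genes on each scale. Figla stands at -5.64 and -4.99 in WT, and Nr6a1 moves from -1.01 to 0.61 there.

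Between the growing and the GV stage 3 members were lower in WT oocytes (28.7% of all genes) and none higher (2.77%): Lhx8 (-0.85), Tbpl2 (-0.68) and Nr6a1 (-0.62). Each was lost without 1 of the growing or GV libraries of WT: Lhx8 without WT growing replicate 2 (adjusted p = 0.0542), Nr6a1 without that library or WT GV replicate 2 (adjusted p = 0.0881 and 0.0984), and Tbpl2 without WT growing replicate 1 or WT GV replicate 2 (adjusted p = 0.149 and 0.173). In Zar1/2-null oocytes 7 members were lower (55.9% of all genes) and none higher (4.76%), with Tbpl2 at -1.92, Nr6a1 at -1.70, Taf4b at -1.22 and Lhx8 at -1.17. The calls of these 4 were kept in all alternatives run. Figla (-0.61, limma adjusted p = 0.0450) lost its call in 11 of 21 alternatives and changed sign in 1 more. Nobox (-1.09) lost its call in 4 of 21, and Sebox (-0.65) in 3 of 21, with a change of sign in 1 more. Without the ERCC factors no member passed in WT. In Zar1/2-null oocytes 4 were then lower and 1 higher: Sohlh2 passed as higher (0.73, adjusted p = 0.0377), and Nobox, Figla and Sebox did not pass. On the ERCC scale the all-gene median was -0.29 for WT and -0.50 for Zar1/2-null oocytes.

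The partners of these factors in the transcription machinery did not move as 1 group. Of 20 core promoter genes, 1 was higher and 3 lower in Zar1/2-null growing oocytes, 2 higher and 6 lower at the GV stage, and 5 higher and 3 lower at MII, where the shares of all genes were 10.6% and 24.4%, 2.83% and 40.6%, and 21.5% and 10.3%. The balance turned with the scaling: with the ERCC factors divided out, growing oocytes had 2 higher and 1 lower, followed by 2 higher and 2 lower at the GV stage, and 2 higher and 9 lower at MII (4 and 8 with median scaling). The median log2 differences of the list were -0.26, -0.44 and -0.11. Tbpl1, a paralogue of Tbpl2 in the TBP family, was higher in Zar1/2-null oocytes at all 3 stages, at a mean of 21.3 against 3.96 FPKM in growing (log2 difference 2.17, limma adjusted p = 2.25e-05), 14.7 against 3.86 FPKM in GV (1.68, limma adjusted p = 0.000102) and 10.3 against 2.47 FPKM in MII oocytes (1.70, limma adjusted p = 4.23e-05). Tbpl2 itself was lower at the last 2 of these stages, as given above. Tbp was lower at MII (-0.68, limma adjusted p = 0.0177), which did not pass without WT MII replicate 2 (-0.50, adjusted p = 0.146) or Zar1/2-null MII replicate 2 (-0.61, adjusted p = 0.101). Gtf2a1l, the germ cell form of the TFIIA large subunit that works with TBPL2, was higher at the GV stage (0.64, limma adjusted p = 0.0211) and at MII (1.34, limma adjusted p = 0.000271), whereas the general form Gtf2a1 was lower in growing (-0.71, limma adjusted p = 0.00654) and GV oocytes (-0.83, limma adjusted p = 0.0023). The GV call of Gtf2a1l was lost without WT GV replicate 2 (0.51, adjusted p = 0.110) or Zar1/2-null GV replicate 2 (0.46, adjusted p = 0.124). That of Gtf2a1 was lost when the ERCC factors were divided out (-0.40, adjusted p = 0.0614), and its growing call without WT growing replicate 1 (adjusted p = 0.0644) or Zar1/2-null growing replicate 2 (adjusted p = 0.0592). Of the other TFIID subunits, Taf11 was lower at the GV stage (-1.37, limma adjusted p = 8.20e-05), and Taf7 at the GV stage (-1.07, limma adjusted p = 0.000712) and at MII (-0.96, limma adjusted p = 0.00116), calls that were kept in all alternatives run. Taf13 was lower in growing oocytes (-0.64, limma adjusted p = 0.0270), a call lost without the ERCC factors (-0.35, adjusted p = 0.0922), with median scaling, and without either WT growing library or Zar1/2-null growing replicate 2 (adjusted p up to 0.185). Taf4a, the general counterpart of Taf4b, was lower at the GV stage (-0.50, limma adjusted p = 0.0176), a call that was lost with median scaling (0.0018), without the ERCC factors (-0.09), and without WT GV replicate 1 or Zar1/2-null GV replicate 2 (adjusted p = 0.0920 and 0.0924).

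Of 13 dimer partners and cofactors, 11 were tested. In growing oocytes 2 passed as higher and 2 as lower in Zar1/2-null libraries (10.6% and 24.4% of all genes), with 1 higher and 1 lower at the GV stage (2.83% and 40.6%), and 2 higher and 1 lower at MII (21.5% and 10.3%). Tcf12, a bHLH partner, was higher in growing Zar1/2-null oocytes (0.69, limma adjusted p = 0.0139), and Id2, an inhibitor of bHLH dimers, was lower (-0.94, limma adjusted p = 0.00890). Lmo4, a LIM-only protein that competes for the LIM cofactor LDB1, was higher in growing (1.15, limma adjusted p = 0.00248) and GV oocytes (0.87, limma adjusted p = 0.00909). Tcf3, whose product pairs with FIGLA, was higher at MII (0.60, limma adjusted p = 0.0411) from 0.885 to 1.86 FPKM. Tcf4, another bHLH partner of this class, went the other way: it was lower at the GV stage, at a mean of 0.321 against 1.20 FPKM (-0.74, limma adjusted p = 0.000738), a call kept in 21 of 21 alternatives, and at MII, at 0.251 against 0.637 FPKM (-0.39, limma adjusted p = 0.0289), a call lost without WT MII replicate 1 (adjusted p = 0.205) or either Zar1/2-null MII library (adjusted p up to 0.152). Ssbp2, which binds LDB1, was higher at MII (0.50, limma adjusted p = 0.0475), and 10 of 21 alternatives lost this call, among them the fits without any 1 of the MII libraries or of the WT growing libraries (adjusted p up to 0.165) and the fit with a replicate block (adjusted p = 0.0538). Several of these calls were lost without 1 library: Tcf12 and Id2 without WT growing replicate 1 (adjusted p = 0.0881 and 0.0550) or Zar1/2-null growing replicate 2 (adjusted p = 0.125 and 0.0621), and Lmo4 at the GV stage without WT GV replicate 1 (0.58, adjusted p = 0.1004). Tcf3 was lost without any 1 of the MII libraries (adjusted p up to 0.245) or of the WT GV libraries (up to 0.0553).

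Among 16 genes known to need these factors, 2 were higher and 2 lower in growing Zar1/2-null oocytes, 5 were lower and none higher at the GV stage, and 10 were higher and 2 lower at MII, beside 10.6% and 24.4%, 2.83% and 40.6%, and 21.5% and 10.3% of all genes higher and lower. With the ERCC factors divided out the counts were 5 higher and 1 lower, 3 higher and 1 lower, and 9 higher and 2 lower, so that the balance at the GV stage turned, as it did with median scaling (2 higher and 1 lower). The lowest p-values of the list at MII were in the zona pellucida genes, the FIGLA targets that build the egg coat. Zp3 had a mean of 739 FPKM in Zar1/2-null against 16.4 FPKM in WT MII oocytes (log2 difference 5.40, limma adjusted p = 3.93e-09), Zp2 662 against 36.8 FPKM (4.14, limma adjusted p = 1.68e-08) and Zp1 335 against 17.2 FPKM (4.24, limma adjusted p = 1.13e-07). Jag1, a Notch ligand, was lower at all 3 stages (-1.23, -1.35 and -0.90), as was Kit, the receptor through which granulosa cells support growth (-0.71, -0.86 and -0.98). Kit at the GV stage did not pass with the ERCC factors divided out (-0.43, limma adjusted p = 0.173) or with median scaling (-0.33, limma adjusted p = 0.216). On both of these scales Jag1 was the 1 gene of this list that passed as lower in growing oocytes, so the growing call of Kit was lost too. Dnmt1, the maintenance DNA methyltransferase, was lower at the GV stage (-0.75, limma adjusted p = 0.00872), a call lost without the ERCC factors (-0.30, adjusted p = 0.369), with median scaling (-0.20, adjusted p = 0.486) and without Zar1/2-null GV replicate 2 (adjusted p = 0.0575). Kdm1b (0.81, limma adjusted p = 0.00232) and Fgf8 (0.77, limma adjusted p = 0.00832) were higher in growing Zar1/2-null oocytes, the latter not without WT growing replicate 1 (adjusted p = 0.0681). The median log2 differences of the list were -0.01, -0.30 and 0.81.

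**Figure D4:**
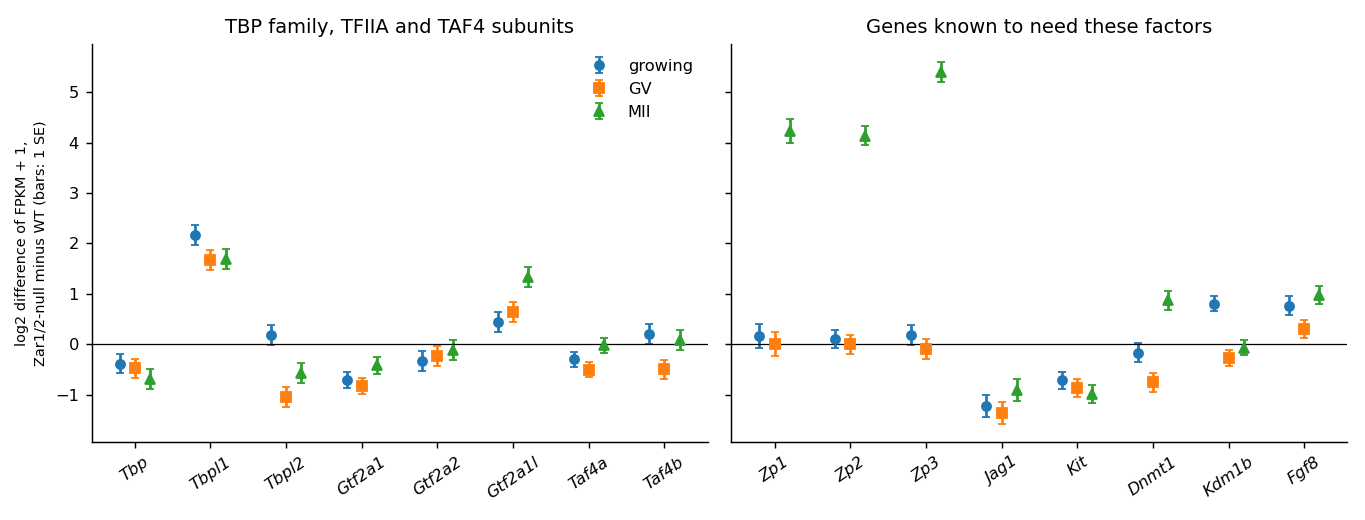
Log2 difference of FPKM + 1 between Zar1/2-null and WT oocytes, with bars of 1 SE, for TBP family, TFIIA and TAF4 genes (left) and for genes known to need these factors (right), at the growing (circles), GV (squares) and MII (triangles) stages. Tbpl1 lies between 1.68 and 2.17 at all 3 stages while Tbpl2 is at -1.04 in GV oocytes, and Zp3 reaches 5.40 at MII only.

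The members did not share 1 profile over the 12 libraries. Pearson correlations of log2(FPKM + 1) between pairs of members ran from -0.25 (Sohlh2 and Nr6a1) to 0.98 (Nobox and Lhx8), as a description only, since the 12 points share stages and scaling. Figla and Sebox had 0.97, and Nr6a1 and Tbpl2 0.94. Among 5744 genes whose mean reached 10 FPKM in at least 1 group, the profile closest to Nobox was that of Aldoa (0.997), to Figla Rpl23a (0.996), to Lhx8 Optn (0.999), to Sebox 2410003K15Rik (0.993), to Taf4b 2410127L17Rik (0.9901), to Nr6a1 Pdcl (0.992) and to Tbpl2 Rnf138 (0.997). Sohlh2 stood apart with a highest value of 0.91 (Pard6g).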

How the data were processed

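Smart-seq2 reads were trimmed by the authors to 50 bp and aligned against mm9 (TopHat2 2.1.1). From the uniquely mapped reads and UCSC gene models they computed FPKM (Cufflinks 2.2.1), and the FPKM table they deposited holds 23230 genes and 12 libraries, rescaled by the percentage of ERCC reads in a library relative to WT growing oocytes. Each column was mapped to 1 sample. The factors, between 0.225 and 1, were recovered from the digits of the values, 100% of which returned to 6 digits. Both WT growing libraries had a factor of 1, although the study gives them unlike ERCC percentages, so replicates 1 and 2 did not share 1 reference.

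Group means of log2(FPKM + 1) over all 12 libraries were compared in 9 contrasts with limma 3.58.1 (R 4.3.3, eBayes with an intensity trend), adjusted by Benjamini-Hochberg. The procedure was tested on simulated data, with 200 of the more abundant genes changed in Zar1/2-null growing oocytes. It recovered 99.5% of them at 6-fold but 57.5% at 2-fold, so a gene that did not pass may still differ. Named genes were the 9 members, their partners in complexes, the 3 lowest p-values per list and stage, and the genes most correlated with each member. Members and lists were chosen with earlier results of these data known. Alternatives were other scalings, a pseudocount or floor of 0.1 FPKM, other filters on low values, no trend, a replicate block, fewer libraries and leaving out each library. Positions came from an annotation of NCBIM37 (mm9), promoters from RefSeq (GRCm38.p6). For growing oocytes the methods give an age of 12 days and the labels 13.5 days.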

Additional observations from a re-analysis of the deposited data

Results flagged for a closer look

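For 6 results the difference between Zar1/2-null and WT oocytes itself differed between 2 stages by the limma interaction test. From the growing to the GV stage these were Nr6a1 (-1.08, 2 of 21 alternatives lost the call) and Tbpl2 (-1.24, 4 of 21 lost it). From the GV to the MII stage they were Figla (3.54) and Sebox (2.22), both kept in 21 of 21 alternatives, Sohlh2 (0.85, lost in 8 of 20) and Lhx8 (0.73, lost in 11 of 21, with adjusted p up to 0.847). Leaving out 1 library took Tbpl2 to adjusted p = 0.0627 (without WT GV replicate 1), Sohlh2 to 0.129 and Lhx8 to 0.142 (both without WT MII replicate 1). The 6 values are log2 differences and were given with their errors above.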

How the results depend on the processing

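Of the 10 genotype calls of members, 5 were kept under every alternative: Figla, Sebox, Sohlh2 and Nr6a1 at MII, and Nr6a1 at the GV stage. With the ERCC factors divided out, the number of members that passed was 1 in growing oocytes, 0 for growing to GV and 5 for GV to MII in WT (4 lower and 1 higher), 4 for GV to MII in Zar1/2-null oocytes (3 lower and 1 higher), and 1 and 2 in the interactions. With median scaling it was 1 in growing oocytes, 0 for growing to GV in WT, and 0 and 2 in the interactions. With only the libraries compared it was 2 in growing and 2 in GV oocytes and 1 in the first interaction. Giving both libraries of a group the mean of their ERCC factors gave 1 in growing oocytes, and no filter gave 2 in the second interaction. A fit with 1 ERCC reference for both replicates was not run.

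Values that changed sign are given without the ERCC factors and then with median scaling. Between genotypes they were Lhx8 in growing (0.21, 0.17) and GV oocytes (0.060, 0.16), Sebox in growing oocytes (0.28, 0.24), Taf4b at MII (-0.080, -0.024) and, with median scaling only, Taf4a at the GV stage (0.0018). From growing to GV they were Figla in WT (0.21, 0.18) and, with median scaling only, Figla (0.048) and Sebox (0.0050) in Zar1/2-null oocytes. From GV to MII in WT they were Nr6a1 (0.61, 0.86), Sohlh2 (0.52, 0.72), Taf4b (0.045, 0.28) and Tbpl2 (0.21, 0.46), and in Zar1/2-null oocytes Nr6a1 (0.45, 0.66), Sebox (0.10, 0.32), Taf4b (0.11, 0.31) and, with median scaling only, Tbpl2 (0.18). The cause was not tested.

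Leaving out 1 library gave 0 to 1 members in growing oocytes (1 without either WT MII library), 2 to 5 at the GV stage (2 without WT GV replicate 1), 4 to 6 at MII, 1 to 5 for growing to GV in WT (1 without WT growing replicate 2 or WT GV replicate 2, 5 without either Zar1/2-null GV library), 4 to 7 in Zar1/2-null oocytes (4 without Zar1/2-null growing or GV replicate 1), 1 to 3 and 2 to 4 in the interactions, and 0 to 1 past 3-fold at the GV stage (1 without WT GV replicate 2 or Zar1/2-null GV replicate 1). Genotype values that crossed 0 ranged from -0.090 to 0.16 (Figla, GV), -0.18 to 0.043 (Lhx8, growing), -0.17 to 0.16 (Sebox, growing) and -0.11 to 0.24 (Sohlh2, growing), and Sebox from growing to GV in WT from -0.18 to 0.25.

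Correlations of replicate deviations between genotypes were low, with values of 0.16, -0.12 and 0.09 for growing, GV and MII oocytes. They do not settle whether the replicate numbers pair the samples. Both WT growing libraries had a factor of 1, so the scaling itself links libraries of the same replicate number. The fit with the replicate number as a block gave 0, 4 and 6 members at the 3 stages and 4285, 5268 and 3840 genes. By direction these genes were 1296 higher and 2989 lower in growing, 344 and 4924 in GV, and 2574 and 1266 in MII oocytes. The main fit called fewer in each case: 1224 and 2801, 325 and 4666, and 2472 and 1183. Crossing the GV pairing, an alternative chosen after seeing the data, gave 5 members and 5556 genes. The table holds no counts, so the part of counting error in these limits is not known.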

Other observations

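Sebox was the only tested member with a passing difference in opposite directions at 2 stages, -0.69 at the GV stage and 1.53 at MII, and the first of these was lost without the ERCC factors and with median scaling. No member had libraries that moved in opposite directions in growing and in MII oocytes without overlap (0 of 8).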
